A study of Populus euphratica with 12 samples.

Results

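Among the mRNAs of *Populus euphratica* juvenile leaves, 200 transcripts that were low together in the libraries La3, Ov3 and Bo3 and higher in every other library were described. A transcript was chosen when its highest FPKM in La3, Ov3 and Bo3 was at most 0.5 times its lowest FPKM in the 9 other libraries, and when its mean in those 9 libraries was at least 5 FPKM. FPKM is the number of fragments scaled by the length of the transcript and the size of the library, so levels of different transcripts can be set side by side. Of the 49676 mRNAs listed, 17816 reached that mean and 261 of them met both limits, which is 1.46%. The 200 with the largest ratio of (lowest of the 9 others + 1) to (highest of the 3 + 1) were kept, and the other 61 were not. The 200 transcripts belonged to 199 genes. The transcripts were thus chosen by the FPKM of all 12 libraries, so their low values in La3, Ov3 and Bo3 are a description, and no test was made of them.

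Heterophylly is the bearing of differently shaped leaves by 1 species. In this desert poplar, 4 groups of juvenile leaves were sampled with 3 libraries each: linear leaves (Li) from trees aged 0 to 3 years, lanceolate leaves (La) from trees aged 4 to 6 years, ovate leaves (Ov) from trees aged 8 to 12 years and broad-ovate leaves (Bo) from trees over 20 years old. All trees grew at the same site and were sampled in the same month, and leaf shape cannot be told apart from tree age. The study calls the libraries of a group biological replicates. Neither it nor the labels say whether they came from separate trees or buds, so p-values measure the spread between these libraries. The transcripts described here cut across these groups, because the low libraries were 1 of the 3 from each of La, Ov and Bo and none from Li.

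Some of the transcripts with a known name belong to the cell cycle. In dividing plant cells, histones are made while DNA is copied, B-type cyclins with B-type cyclin-dependent kinases (CDKs) carry the cell into mitosis, and condensin, topoisomerase 2 and spindle proteins then shape and separate the chromosomes. A young leaf grows first by such divisions and later by cell expansion, and stomata, the pores of the epidermis, arise from their own series of divisions. Most of the 200 transcripts had no such name. Only 12 carried a gene symbol other than a locus number, 16 had a product name, for the transcript or its gene, in the annotation supplied by the study, and 27 had either. Of these 27, 10 were kinases, cyclins, histones, spindle or chromosome proteins, which come first below. They were grouped after their names and values had been seen, and their share was not compared with that among other named mRNAs. Symbols follow Arabidopsis names, and the roles given below are those known from Arabidopsis unless another source is named.

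In the 9 other libraries the 200 transcripts had a median level of 27.0 FPKM (mean of the 9 libraries, quartiles 14.8 and 74.5), with a range from 5.27 to 1331 FPKM. In La3, Ov3 and Bo3 their median level was 5.27 FPKM (mean of the 3 libraries, quartiles 2.46 and 15.2). The mean of the 9 others was at least 2.85 times the mean of the 3, with a median of 5.07 times and quartiles of 4.31 and 5.99 times. Summed, the transcripts took 0.405% to 0.5999% of all mRNA FPKM in the 3 low libraries and 1.65% to 2.75% in the 9 others. In bulk tissue, fewer cells of a type and less RNA per cell cannot be told apart.

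The 3 low libraries were not equally low. Relative to the mean log2(FPKM + 1) of the 9 others, the median of the 200 transcripts lay at -1.73 in La3, -2.06 in Bo3 and -2.41 in Ov3. Ov3 held the lowest value of the 3 for 144 transcripts, Bo3 for 40 and La3 for 16. The highest of the 3 was La3 for 129 transcripts, Bo3 for 55 and Ov3 for 16. For most transcripts La3 was therefore the library that set whether the limit was met. Over all 32309 mRNAs with a mean of at least 0.5 FPKM, the same median lay between -0.14 and -0.09 in the 3 libraries and between -0.06 and 0.11 in the 9 others. Over the 17816 mRNAs with a mean of at least 5 FPKM in the 9 others, it lay at -0.15 in La3, -0.19 in Ov3 and -0.15 in Bo3. It lay between -0.02 and 0.10 in the 9 others.

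**Figure D1:**
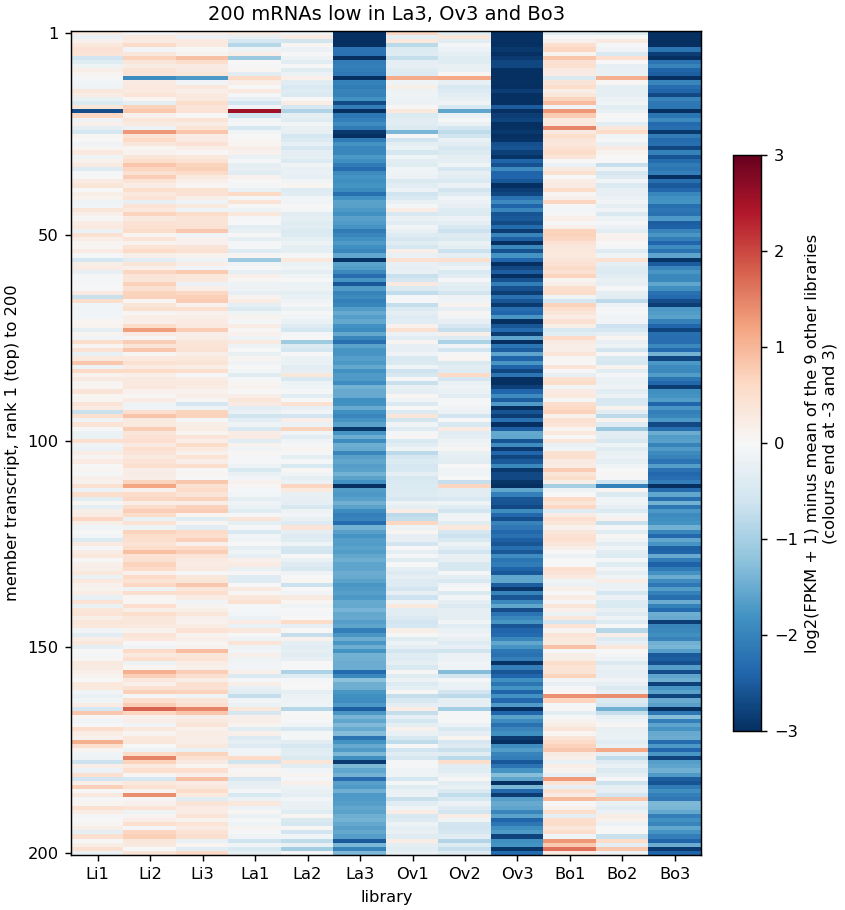
Heat map of log2(FPKM + 1) minus the mean of the 9 other libraries (colour) for the 200 transcripts (rows, in the order of the ratio that ranked them) in the 12 libraries (columns, each column 1 library). The columns La3, Ov3 and Bo3 are blue throughout, with medians of -1.73, -2.41 and -2.06, while Li2, Li3 and Bo1 are the reddest columns, with medians of 0.36, 0.29 and 0.30.

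The 9 other libraries differed among themselves too, on a smaller scale. The median of the transcripts was 0.36 in Li2, 0.30 in Bo1, 0.29 in Li3 and 0.09 in Li1. It was -0.07 in La1, -0.19 in La2, -0.21 in Bo2, -0.28 in Ov2 and -0.29 in Ov1. The highest of the 9 values was in Li2 for 69 transcripts, in Bo1 for 62 and in Li3 for 37. The lowest was in Ov1 for 63 transcripts, in Ov2 for 50, in Bo2 for 37 and in La2 for 29. Li3 carries the same library number as the 3 low libraries and was among the highest. Over the 9 libraries, which the rule used only to set a floor, the 19900 pairs of transcripts had a mean Pearson r of 0.467 (median 0.542), and 89.9% of the pairs were above 0. For all 17816 mRNAs with a mean of at least 5 FPKM the mean r was 0.011. These correlations rest on 9 libraries of the same 4 groups and on shared scaling, and isoforms and neighbouring transcripts can share reads.

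Other properties moved with the 3 low libraries. Their summed mRNA FPKM was 671282 to 713742, against 724700 to 770979 in the 9 others, and the 10 most abundant mRNAs took 7.22% to 8.61% of it, against 5.15% to 6.94%. The upper quartile of the mRNAs above 0 was 9.61 to 10.1 FPKM in the 3 and 10.1 to 11.7 FPKM in the 9 others. The number of mRNAs above 0 did not set them apart (46477 to 46697 against 46457 to 47043). All 3 libraries lay below all 9 others for 3195 (17.9%) of the mRNAs with a mean of at least 5 FPKM, and above all 9 for 685 (3.84%). The mirror rule, with the 3 libraries at least 2-fold higher, was met by 19 mRNAs against 261. The part of these properties in the low values was not tested. With every library scaled to the same upper quartile 199 mRNAs met the limits, among them 168 of the 200, and with every library scaled to the same summed FPKM 220 did, among them 179 of the 200.

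**Figure D2:**
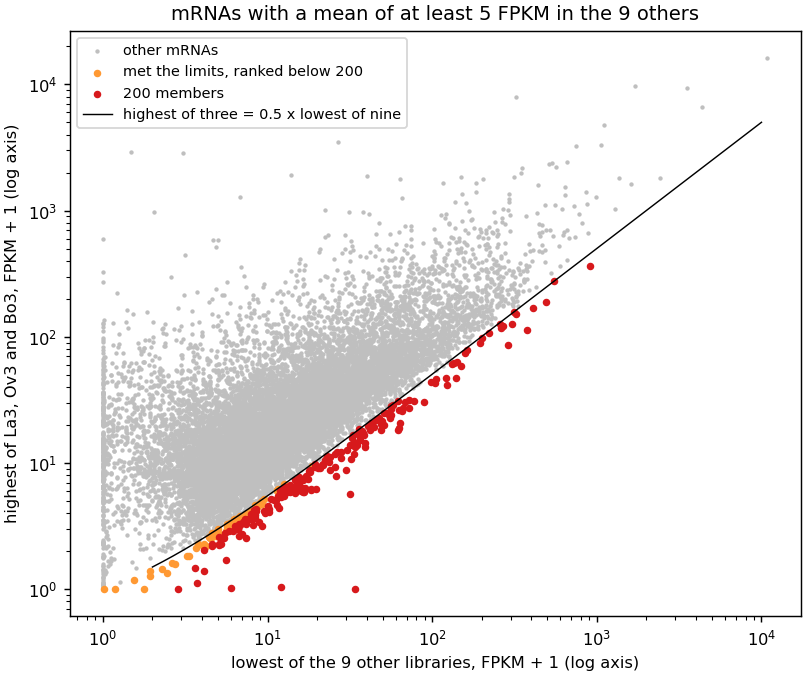
Scatter of the lowest FPKM + 1 in the 9 other libraries (x, log axis) against the highest FPKM + 1 in La3, Ov3 and Bo3 (y, log axis) for the 17816 mRNAs with a mean of at least 5 FPKM in the 9 others, each point 1 transcript. The 200 transcripts kept (red) and the 61 that met the limits with a smaller ratio (orange) lie under the line of the limit, and the red points near the bottom left to centre are transcripts whose 3 low libraries were close to 0.

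Kinases and cyclins of mitosis are described first. CDKB2;1 (XM_011042835.1), a B-type CDK of mitosis, stood at 87.0, 103 and 98.0 FPKM in Li1 to Li3. It had 89.1 and 76.4 in La1 and La2, 70.9 and 74.6 in Ov1 and Ov2, and 78.7 and 76.7 in Bo1 and Bo2, against 30.6 in La3, 11.2 in Ov3 and 10.8 in Bo3. The 9 others thus kept within 70.9 to 103 FPKM (83.8 ± 11.1, SD, n = 9), while the 3 low libraries held 17.5 FPKM on average. A transcript named cell division control protein 2 homolog D-like (XM_011036480.1) had a lower level. It had 19.8 to 30.0 FPKM in the 9 others and 8.07, 2.68 and 4.52 FPKM in La3, Ov3 and Bo3.

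CYCB2;1 (XM_011023843.1), a B-type cyclin, had 24.5, 37.1 and 29.1 FPKM in Li, 25.6 and 18.1 in La1 and La2, 15.7 and 20.6 in Ov1 and Ov2, and 31.6 and 23.8 in Bo1 and Bo2. It had 4.86 FPKM in La3, 2.32 in Ov3 and 4.14 in Bo3, a mean 6.66 times below that of the 9 others. TPX2 (XM_011030740.1), which helps to assemble the spindle, ranged from 10.2 to 21.5 FPKM in the 9 others with a median of 14.6, against 4.10, 1.40 and 2.22 FPKM in La3, Ov3 and Bo3. In both genes Ov3 was the lowest library, and all 9 others lay above the 3 by the rule.

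Proteins of chromosomes and microtubules come next, and their low values in the 3 libraries are likewise set by the rule. The transcript of condensin complex subunit 1 (XM_011028974.1), part of the ring complex that compacts mitotic chromosomes, had 9.19 to 18.6 FPKM in the 9 others and 3.08, 2.88 and 2.96 FPKM in La3, Ov3 and Bo3. A DNA topoisomerase 2-like transcript (XM_011027164.1), for the enzyme that untangles DNA strands, had 13.9 to 24.5 FPKM against 5.50, 2.87 and 2.05 FPKM, and the sum over the 5 transcripts of its gene also met the limits. A tubulin beta-1 chain-like transcript (XM_011030942.1), for a building block of microtubules, had 15.0 to 44.8 FPKM against 5.01, 3.22 and 4.90 FPKM. Condensin was nearly equal in the 3 low libraries, and topoisomerase 2 was lower in Ov3 and Bo3 than in La3.

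Histones are the proteins on which DNA is wound. Of the 3 histone transcripts, HTA12 was among the 10 most abundant of the 200 and the H4 transcripts were near the median of the 200. HTA12 (XM_011021613.1), a histone H2A, had 657, 1045 and 1048 FPKM in Li, 763 and 699 in La1 and La2, 689 and 573 in Ov1 and Ov2, and 802 and 551 in Bo1 and Bo2. It had 253, 216 and 274 FPKM in La3, Ov3 and Bo3, and with a highest-to-lowest quotient of 0.497 it was among the 3 kept transcripts closest to the limit. One histone H4 transcript (XM_011027653.1) had 11.0 to 42.4 FPKM in the 9 others and 2.46, 3.75 and 4.40 FPKM in the 3. Another (XM_011015369.1) had 5.65 to 60.1 FPKM against 2.02 and 2.02 FPKM in La3 and Ov3 and a value near 0 (7.16e-13) in Bo3. Histone H4 genes are near-identical copies between which reads are divided, so the value of a single copy is uncertain. CMT3 (XM_011039676.1), a DNA methyltransferase that maintains methylation outside CG sites, had 20.4 to 49.6 FPKM in the 9 others, lowest in Ov1, and 8.42, 6.02 and 8.65 FPKM in the 3.

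To see how far the pattern reached, 45 genes with cell-division or stomatal symbols and a mean of at least 1 FPKM were read as sums over their transcripts. This list was made after the values of the 200 transcripts had been seen, and it holds 6 of their genes, so its counts are a description. All 3 low libraries lay below all 9 others in 25 of the 45 genes, against 16.4% of the 22777 genes with such a mean. The mean of the 3 was below that of the 9 in 43 genes. Over all 22777 genes the mean of the 9 others was 1.14 times that of the 3 at the median.

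The steps of the cycle differed in how cleanly the libraries separated, but the rule set part of this difference. The 3 low libraries were below all others in 3 of 4 mitotic kinase and cyclin genes, in 5 of 6 spindle genes and in 4 of 4 genes of the anaphase-promoting complex, which ends mitosis by marking proteins for breakdown. They were below all others in 3 of 4 cohesin and chromosomal histone genes, among them SMC3, a cohesin subunit, with 20.4 to 37.7 FPKM against 12.5, 7.87 and 7.18 FPKM. CDC2, the CDK used throughout the cycle, differed less than CDKB2;1, with 67.9 to 85.6 FPKM in the 9 others and 61.0, 54.7 and 44.8 FPKM in La3, Ov3 and Bo3. The median quotient of the mean of the 9 and the mean of the 3 was 3.10 for the kinases and cyclins, 2.72 for the spindle genes and 1.75 for the anaphase-promoting complex. CDKB2;1, CYCB2;1, TPX2 and HTA12 hold transcripts that were chosen for low values in the 3 libraries, which raises the counts and quotients of their steps. No gene of the anaphase-promoting complex, DNA replication or entry into the cycle holds such a transcript. Of the other kinase and cyclin genes, CDC2 had the 3 libraries below all others and CYCB3;1 did not. The difference between steps is therefore a description.

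DNA replication genes were low in the 3 libraries on average but did not separate them. The median quotient over 15 such genes was 3.00, yet the 3 low libraries lay below all 9 others in only 3 of them (ORC3, MCM10 and RNR2A). PCNA2, the sliding clamp of DNA polymerase, had 26.7, 52.1 and 57.7 FPKM in Li, 12.7, 9.08 and 16.2 FPKM in La, 39.7, 6.44 and 7.86 FPKM in Ov, and 58.8, 13.6 and 6.71 FPKM in Bo. Its level was as low in La2 and Ov2 as in Ov3 and Bo3, and La3 was higher than La1 and La2. MCM6, a subunit of the replicative helicase, showed the same overlap, with 5.12 FPKM in La2 and 6.67 in Ov2 against 7.70, 3.99 and 3.46 FPKM in La3, Ov3 and Bo3. Among 6 regulators grouped here under entry into the cycle, which do not all act in the same direction, the median quotient was 1.93. The 3 low libraries lay below all 9 others in DEL1 alone (quotient 3.37). The quotient was 4.06 for CYCD6;1, 2.21 for ICK5 and 1.65 for ICK3, against 0.904 for E2F1 and 0.793 for RBR1, which holds E2F factors in check.

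**Figure D3:**
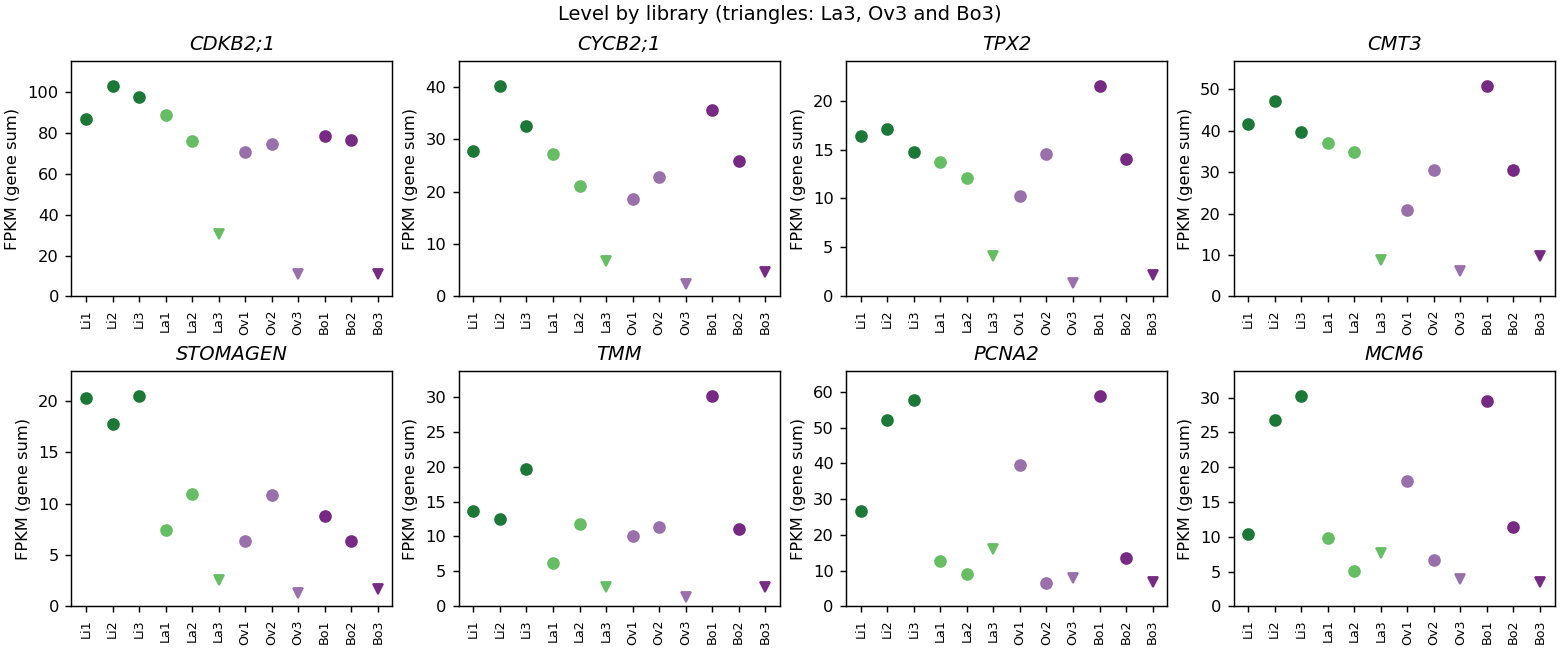
FPKM summed over the transcripts of a gene (y, linear axis from 0) in each of the 12 libraries (x, 1 point per library, coloured by leaf group, with triangles for La3, Ov3 and Bo3) for 8 genes. The triangles lie under all circles for CDKB2;1, CYCB2;1, TPX2, CMT3, STOMAGEN and TMM, which all met the limits of the rule. For PCNA2 and MCM6, which did not meet them, circles of La2 and Ov2 lie at the height of the triangles.

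**Figure D4:**
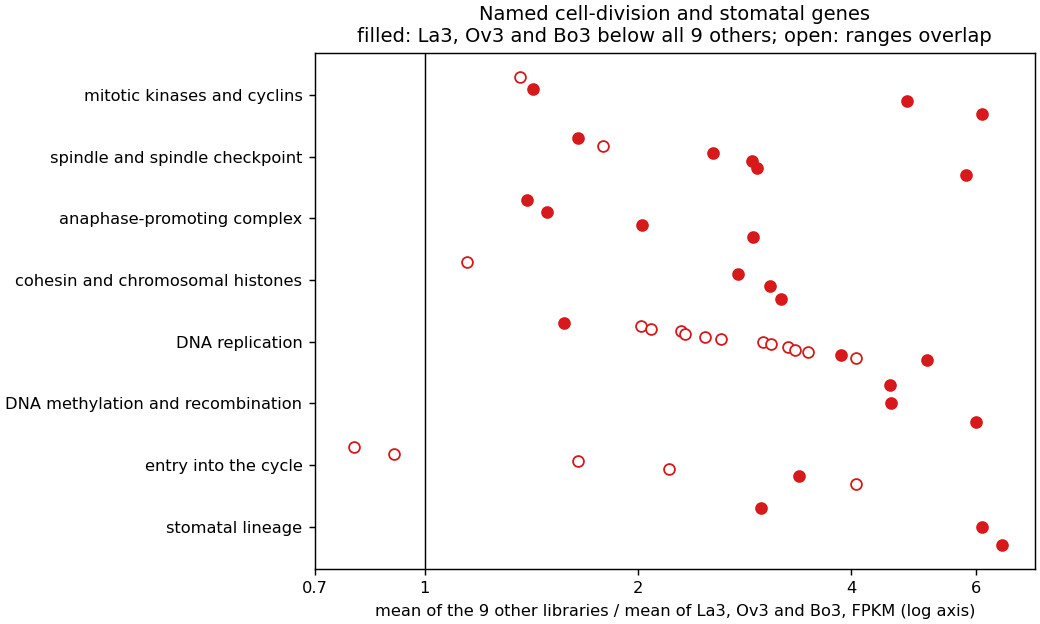
Mean of the 9 other libraries divided by the mean of La3, Ov3 and Bo3 (x, log axis, FPKM summed per gene) for the 45 genes with a mean of at least 1 FPKM, 1 point per gene, in rows by role. Filled points, 25 in all, are genes in which the 3 libraries lay below all 9 others, and most DNA replication genes are open, with quotients in that row between 1.57 and 5.11.

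Stomatal genes stood beside the cell cycle genes. STOMAGEN (XM_011026266.1), also called EPIDERMAL PATTERNING FACTOR-like protein 9, is a secreted peptide that promotes stomata. It had 20.3, 17.7 and 20.4 FPKM in Li, 7.46 and 11.0 in La1 and La2, 6.40 and 10.9 in Ov1 and Ov2, and 8.77 and 6.32 in Bo1 and Bo2, against 2.58, 1.30 and 1.70 FPKM in La3, Ov3 and Bo3. Among the 9 others its Li values were the highest, but how many transcripts shared this order was not counted. Relative to the mean of the 9, the median of the 200 was also above 0 in Li1 to Li3 (0.09, 0.36 and 0.29). It was above 0 in Bo1 as well (0.30). TMM, a receptor-like protein of stomatal patterning, met the limits but ranked below the 200 kept, with 6.23 to 30.0 FPKM against 2.79, 1.38 and 2.72 FPKM. ER, a receptor kinase of growth and stomatal patterning, had 60.8 to 145 FPKM against 41.5, 30.2 and 26.0 FPKM and did not meet the limits. TMM and ER, like the cell cycle genes outside the 200, were chosen after their values had been seen.

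Enzymes and other proteins of the cell wall were also among the named transcripts, and were put together here after their values had been seen. CESA4 (XM_011026153.1), a cellulose synthase of secondary walls, had 6.05, 6.47 and 4.68 FPKM in Li, 5.42 and 5.84 in La1 and La2, 3.58 and 4.23 in Ov1 and Ov2, and 13.0 and 12.0 in Bo1 and Bo2. It had 1.23 FPKM in La3, 1.30 in Ov3 and 0.656 in Bo3. CTL2 (XM_011011644.1), a chitinase-like protein linked to cellulose deposition, had 11.7, 13.5 and 12.5 FPKM in Li, 7.94 and 12.0 in La1 and La2, 8.04 and 7.57 in Ov1 and Ov2, and 37.3 and 37.5 in Bo1 and Bo2, against 3.10, 3.18 and 1.17 FPKM in the 3. Both had their highest values in Bo1 and Bo2 and their lowest in Bo3, so that the Bo group held both ends of their range.

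GH9B13 (XM_011043660.1), an endoglucanase of glycosyl hydrolase family 9, had 50.2 to 116 FPKM in the 9 others and 15.2, 10.6 and 19.0 FPKM in La3, Ov3 and Bo3. PME5 (XM_011033576.1), a pectin methylesterase, had 14.5 to 54.8 FPKM, highest in Li1, against 6.69, 1.55 and 4.38 FPKM. In both genes the 9 others varied by more than 2-fold, and the 3 still lay below them all by the rule.

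The rest of the named transcripts had other roles. The probable aquaporin PIP2-8 (XM_011048364.1), a water channel of the plasma membrane, had 257 to 479 FPKM in the 9 others and 124, 73.9 and 48.2 FPKM in La3, Ov3 and Bo3. A 3-oxo-Delta(4,5)-steroid 5-beta-reductase-like transcript (XM_011018840.1) varied widely among the 9 others, from 17.0 FPKM in Bo2 to 166 in Li2, against 7.79, 3.47 and 4.49 FPKM. A hydroquinone glucosyltransferase-like transcript (XM_011024224.1), for an enzyme that adds glucose to phenolic compounds, had 29.4 to 88.7 FPKM against 11.8, 7.82 and 7.33 FPKM. HVA22G (XM_011046807.1), of a family first known from barley as induced by abscisic acid, had 15.1 to 29.4 FPKM against 5.40, 3.41 and 3.10 FPKM. SCPL35 (XM_011008470.1), a serine carboxypeptidase-like protein, had 50.2 to 91.9 FPKM against 23.8, 16.0 and 21.3 FPKM. A xylem cysteine proteinase 2-like transcript (XM_011042867.1), for a protease of maturing xylem vessels, had 10.5 to 24.2 FPKM against 4.45, 4.08 and 1.41 FPKM.

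Of ribosomal protein transcripts, 40S S11 (XM_011019632.1) had 15.9 to 38.5 FPKM against 3.88, 5.37 and 4.35 FPKM, and 60S L18-2 (XM_011025414.1) had 161 to 405 FPKM against 72.7, 73.7 and 78.0 FPKM. The annotation supplied by the study, held only in part, names 37 cytosolic ribosomal protein transcripts, which the study chose on these samples. The 3 libraries lay below all 9 others in 24 of the 37, though only L18-2 met the limits. They lay below all 9 in 17.9% of all mRNAs with a mean of at least 5 FPKM, a level that 36 of the 37 reached. The study kept mRNAs that rose or fell steadily from Li to Bo, with La3, Ov3 and Bo3 in the groups. Such a choice can favour transcripts low in these 3, so the 24 cannot be weighed against that share. The S11 transcript took its name from another transcript of its gene and was not on this list. Summed, these 37 had 3613, 3099.5 and 3259 FPKM in La3, Ov3 and Bo3, against 4803 to 11671 FPKM in the 9 others.

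Leaf and dividing-cell markers from the same annotation were read in the same way. The summed level of 9 leaf transcripts (chlorophyll a-b binding proteins, rubisco small chain and photosystem subunits) was 2888, 2260 and 1888 FPKM in La3, Ov3 and Bo3, and 2337 to 8637 FPKM in the 9 others. None of the 9 met the limits, and in 5 the 3 libraries lay below all others. The 12 markers of dividing cells (histones, kinesins and a D-type cyclin) summed to 303 FPKM in La3 and 251 in Ov3, below the range of 530.4 to 858 FPKM in the 9 others. In Bo3 the sum was 861 FPKM, of which a histone H1-like transcript (XM_011027627.1) made 486 FPKM and another (XM_011044926.1) 227 FPKM. Of the 12 markers, 3 met the limits and 6 were below all 9 others. No transcript met the limits on the lists of photosynthesis (11), auxin response (8), SPL factors (8) and SR splicing factors (6). The 3 libraries lay below all 9 others in 6, 1, 0 and 0 of these. Over all mRNAs with a mean of at least 5 FPKM, 1.46% met the limits and 17.9% had the 3 below all 9 others. At 1.46%, lists this short would seldom hold a transcript that met the limits. The study chose the transcripts of all these lists on these samples, so the counts are a description. The part of these markers in the low values was not tested.

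Most of the 200 transcripts carried only a locus number, including the most abundant. Of those called uncharacterized in the annotation, LOC105114438 (XM_011011015.1) had 47.6 to 105 FPKM in the 9 others against 17.4, 11.2 and 5.18 FPKM, and LOC105142452 (XM_011050089.1) had 23.1 to 42.7 FPKM against 9.96, 7.87 and 10.2 FPKM. LOC105108354 (XM_011002639.1) had 1407, 2019.8 and 1861 FPKM in Li, 1584 and 1003 in La1 and La2, 911 and 947 in Ov1 and Ov2, and 1297 and 951 in Bo1 and Bo2, against 359, 210.0 and 268 FPKM in La3, Ov3 and Bo3. LOC105128810 (XM_011030636.1) had 487 to 1037 FPKM against 188, 100.2 and 139 FPKM. The 7 others among the 10 most abundant, apart from HTA12, were LOC105125520, LOC105134214, LOC105130679, LOC105128022, LOC105125529, LOC105130688 and LOC105129973, with means of 354 to 591 FPKM in the 9 others and 73.8 to 137 FPKM in the 3. In all, 33 transcripts had a mean of at least 100 FPKM in the 9 others and 29 had a mean under 10 FPKM.

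The largest ratios belonged to transcripts that were close to 0 in the 3 libraries. LOC105115027 (XM_011011789.1) had 51.8, 40.6 and 48.7 FPKM in Li, 50.8 and 40.9 in La1 and La2, 66.7 and 33.2 in Ov1 and Ov2, and 34.4 and 32.9 in Bo1 and Bo2, and was listed at 6.47e-13, 1.20e-11 and 1.16e-13 FPKM in La3, Ov3 and Bo3. LOC105115545 (XM_011012459.1) had 11.0 to 17.7 FPKM against 0.0508, 5.92e-07 and 0.00349 FPKM. LOC105110332 (XM_011005331.1) had 5.03 to 10 FPKM against 0.0159, 3.02e-05 and 9.87e-07 FPKM. LOC105141695 (XM_011049000.1) had 2.75 to 14.0 FPKM against 2.36e-10, 0.114 and 0.0115 FPKM. These transcripts were present in all of the 9 others and all but missing in the 3, and no fold is given against such values.

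In total, 4 of the 200 transcripts had less than 0.1 FPKM in each of the 3 libraries and 8 had less than 1 FPKM, and none was listed at exactly 0 there. An estimate so near 0 arises where reads are divided between alike transcripts as well as where a transcript is absent, and which applies was not tested. The others of the first 10 by ratio were not near 0. LOC105138721 (XM_011044891.1) had 30.6 to 83.6 FPKM against 4.69, 3.29 and 4.68 FPKM, and LOC105131020 (XM_011033773.1) had 61.1 to 111 FPKM against 17.3, 5.81 and 11.0 FPKM. LOC105136277, LOC105134214, LOC105129973 and LOC105114108 completed the first 10.

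At the other end, the ratio that ranked the transcripts was 1.954, 1.952 and 1.951 for the last 3 kept (LOC105132162, LOC105130574 and LOC105120142) and 1.950, 1.948 and 1.943 for the first 3 left out (LOC105127759, LOC105141951 and LOC105107386). The transcripts on both sides of that boundary hardly differ. The same held at the limit itself, where quotients of the highest of the 3 and the lowest of the 9 were 0.497 to 0.499 just inside and 0.502 to 0.503 just outside.

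Isoforms were checked through the sum over all transcripts of a gene. For 146 of the 200 the gene had a single transcript. Of the other 54, the gene sum met the limits for 43 and did not for 11. The gene sum went the other way for LOC105121730, whose member transcript (XM_011020499.1) had 2.61 to 9.79 FPKM in the 9 others and at most 0.471 FPKM in the 3, while the sum over its 5 transcripts was 12.1, 17.5 and 17.8 FPKM in La3, Ov3 and Bo3 against a mean of the 9 others 0.654 times as high. For that gene the low value was one of a single isoform. LOC105132849 was the gene with a pair of transcripts among the 200 (XM_011036572.1 and XM_011036576.1). In the table of RefSeq genes, 3 pairs of member genes were listed 1 after the other: LOC105125529 with LOC105125527, LOC105121730 with LOC105121731, and LOC105137851 with LOC105137864. Whether the genes of a pair lie on the same scaffold was not checked, and the share of such pairs over all genes was not taken.

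The lncRNA and circRNA values, which the rule did not use, were read for the same pattern. Of 371 lncRNAs with a mean of at least 5 FPKM in the 9 others, 3 met the limits (0.809%). XR_843527.1 had 45.5 to 78.4 FPKM against 20.5, 13.8 and 13.3 FPKM in La3, Ov3 and Bo3, and XR_842653.1 had 6.95 to 20.5 FPKM, highest in Li, against 3.21, 3.12 and 3.22 FPKM. XR_838840.1 was close to 0 in the 3 libraries but varied from 0.540 FPKM in Li2 to 58.5 in Ov1 among the others. None of the assembled lncRNAs had one of the 200 mRNAs as its nearest reference.

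Of the 1149 circRNAs, 10 overlapped a member transcript. A circRNA is a closed loop joined at a back-splice junction, and its level is counted from reads across that junction. The 1 with many reads was circRNA_0876 on scaffold NW_011500091.1 (plus strand, 53614 to 83799, PopEup_1.0), which overlaps LOC105109133 (XM_011003730.1) in the sense direction. That mRNA had 89.9, 97.1 and 92.6 FPKM in Li, 54.9, 75.8 and 23.1 FPKM in La, 54.7, 52.4 and 24.1 FPKM in Ov, and 66.3, 84.3 and 18.7 FPKM in Bo. The circRNA had 135, 197 and 144 junction reads in Li, 82, 139 and 39 in La, 104, 103 and 17 in Ov, and 107, 152 and 10 in Bo.

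In RPM circRNA_0876 had 0.988 to 2.32 in the 9 others and 0.456, 0.204 and 0.123 in La3, Ov3 and Bo3. The 3 libraries thus lay below all others in both the linear RNA and circRNA_0876. This case was singled out after its values had been seen, and no test was made. A second circRNA of the same mRNA with nearby ends, circRNA_0877 (54311 to 84476), had 38 junction reads (0.444 RPM) in La3. It was listed at 0 in the other libraries. Counted together, both circRNAs would place La3 closer to the 9 others. The other 8 had between 0 and 8 junction reads in a library, which is too few to place the 3 libraries.

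**Figure D5:**
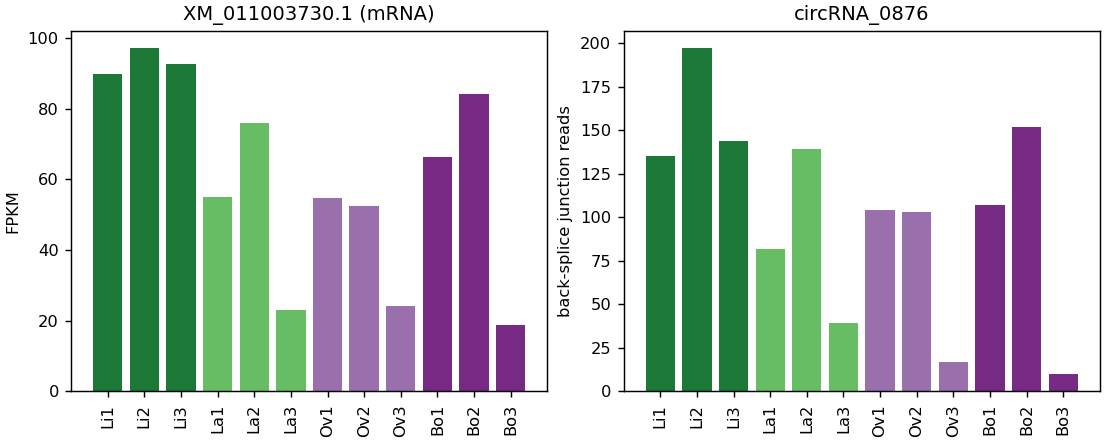
FPKM of the mRNA XM_011003730.1 (left) and back-splice junction reads of circRNA_0876, which overlaps it (right), in the 12 libraries (x, 1 bar per library, coloured by leaf group, y axes from 0). The bars of La3, Ov3 and Bo3 are the lowest in both panels, at 18.7 to 24.1 FPKM and at 10 to 39 reads.

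Whether the 200 transcripts also differed between leaf groups was tested in the 9 libraries other than La3, Ov3 and Bo3, with limma on log2(FPKM + 1) over 32309 mRNAs and Benjamini-Hochberg adjustment. All 200 were among those tested. The rule sets a floor under these 9 values, so a transcript that was very low in any of them could not be chosen. The F test over the 4 groups called 1 of the 200 (0.5%), which was CTL2, against 1.50% of all mRNAs tested. At an unadjusted p under 0.05 it took in 50 of the 200 (25%), against 19.4% of all. With the library number as a block it called none of the 200.

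For Bo/Li, 1 of the 200 was called higher in Bo (0.5%), against 1.68% of all mRNAs tested, and 2 were called lower (1%), against 0.610%. CTL2 had 37.4 ± 0.18 FPKM in Bo1 and Bo2 (SD, n = 2) and 12.6 ± 0.88 in Li (SD, n = 3), and rose by 1.50 on the log2 scale (SE 0.20, limma adjusted p = 0.00806). LOC105140172 (XM_011046894.1) had 78.1, 92.4 and 78.1 FPKM in Li and 51.4 and 35.0 FPKM in Bo1 and Bo2, a log2 change of -0.94 (SE 0.19, limma adjusted p = 0.0464). The histone H4 transcript XM_011015369.1 had 35.8, 60.1 and 35.9 FPKM in Li and 12.6 and 5.65 FPKM in Bo1 and Bo2, a log2 change of -2.20 (SE 0.43, limma adjusted p = 0.0469). The calls of LOC105140172 and the histone H4 transcript lay just past the threshold. Bo3, which the rule made low for all 3 transcripts, was left out of this fit. CTL2 was not called with the library number as a block (limma adjusted p = 0.0763), without Bo1 (0.0771) or without Bo2 (0.0911). With that block LOC105140172 (limma adjusted p = 0.188) and the histone H4 (0.155) were not called either, and they lost the call in 10 and 9 of 12 alternatives.

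With upper quartile scaling 1 of the 200 was called higher in Bo (0.5%), against 1.45% of all mRNAs tested, and 11 were called lower (5.5%), against 1.18%. The median log2 change of the 200 for Bo/Li was then -0.36, and that of all mRNAs tested was -0.01.

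CESA4 had a log2 change of 1.01 (SE 0.21, limma adjusted p = 0.0548) and STOMAGEN one of -1.27 (SE 0.27, limma adjusted p = 0.0565), and neither passed the threshold. At an unadjusted p under 0.05, 8 of the 200 (4%) were higher in Bo, against 13.0% of all, and 30 (15%) were lower, against 6.64%. The median log2 change of the 200 was -0.20 for Bo/Li, with 49 above 0, -0.34 for La/Li and -0.53 for Ov/Li. Over all mRNAs tested the medians were 0.11, 0.02 and 0.04. The 3 comparisons share the Li libraries, so their medians are not independent. Without Bo2 the Bo/Li median of the 200 was 0.05, and without Bo1 it was -0.44, as Bo1 was among the highest libraries for these transcripts and Bo2 among the lower ones.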

How the data were processed

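The 12 libraries were strand-specific total RNA libraries of *P. euphratica* leaves, 4 groups of 3, with groups and numbers taken from the sample titles. The mRNA and lncRNA values deposited by the authors are FPKM. Per the study's methods, reads were aligned to the transcripts of PopEup_1.0 with Bowtie2, several alignments being kept for a read, and FPKM were estimated with eXpress, which divides reads between alike transcripts. Isoforms and near-identical copies therefore share reads, and the read depth behind an FPKM is unknown. The circRNA values deposited by the authors are RPM of back-splice junction reads found with CIRI, and junction reads were recovered from them by taking the lowest value in a library as 2 reads. Counts and RPM of single circRNAs carry counting error.

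The members and gene lists were chosen with earlier results of these data known. Leaf groups were compared in the 9 libraries other than La3, Ov3 and Bo3 with limma 3.58.1 in R 4.3.3, using log2(FPKM + 1) with a pseudocount of 1, a mean-variance trend, mRNAs with a mean of at least 0.5 FPKM over the 12 libraries, and Benjamini-Hochberg adjustment over all 32309 of them at 0.05. Fold changes of low mRNAs are understated on this scale. The test was checked on simulated data. The authors compared groups with DESeq, which needs counts and was not used here. Symbols came from a table of RefSeq genes for a later version of the assembly, whose gene order showed which members are listed 1 after the other. Its coordinates are not printed. Protein and promoter sequences were not analysed here.

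Named were the 10 members with the largest ratio, the 10 most abundant, up to 20 with a product name or symbol, those called in the tests, the 3 on each side of the limits, and up to 5 lncRNAs and circRNAs that met the rule or overlapped a member. The others named, among them STOMAGEN, CESA4, PME5, 60S L18-2 and the reductase, were chosen after their values were seen. A same library number was checked as a pairing by correlating deviations from the group means over the 12 libraries. The r was 0.246, 0.641 and 0.662 for La with Ov, 0.321, 0.041 and 0.289 for Ov with Bo, and -0.210, 0.066 and -0.149 for Li with Bo. For La with Bo it was 0.14, -0.02 and 0.16. For Li with La it was -0.02, -0.09 and 0.11, and for Li with Ov -0.17, -0.11 and 0.02. Libraries of unlike number were not correlated over the 12 libraries, and La3, Ov3 and Bo3 share the low values described here. Whether the numbers pair libraries across groups was therefore not settled. Alternatives covered the limits of the rule, the scaling, the pseudocount, the filter, the trend, the block and leaving out each library.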

Additional observations from a re-analysis of the deposited data

How the results depend on the processing

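The number of mRNAs that met the limits, 261, was 108 with a quotient of at most 0.4 and 516 with at most 0.6. With 1 library left out it ranged from 259 to 566, highest without La3 (566) and Bo3 (451). Both scalings, other floors on the mean and gene sums gave 194 to 374. Scaling to the same summed FPKM was chosen after seeing the data.

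The number of the 200 called in the F test, 1, was 50 at an unadjusted p under 0.05, 2 without a filter, 2 with upper quartile scaling, 2 without the trend, 0 with all 12 libraries and 0 to 3 with 1 library left out (3 without Li1, 2 without Ov2, 0 without Bo1 or Bo2). Over all mRNAs the F test called 486, and 6268 at an unadjusted p, 247 with a pseudocount of 0.1, 86 with all 12 libraries and 87 to 1012 with 1 left out.

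For Bo/Li, 3 of the 200 were called, and 38 at an unadjusted p, 1 with a pseudocount of 0.1, 5 without a filter, 12 with upper quartile scaling, 0 with all 12 libraries and 0 to 3 with 1 left out (1 without Li3, La1, La2 or Bo1, 0 without Bo2). Over all mRNAs 740 were called, and 6345 at an unadjusted p, 164 with all 12 libraries and 193 to 1163 with 1 left out. Upper quartile scaling moved the median Bo/Li of all mRNAs from 0.11 to -0.01 and the calls from 543 higher and 197 lower to 470 higher and 380 lower. The all-12 fit includes the libraries that chose the members. The other causes were not tested.

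With the library number as a replicate block, 0 of the 200 were called in either test, and over all mRNAs 86 in the F test and 199 for Bo/Li. Li3 has no partner among the 9 libraries, so this fit rests on fewer of them. Of the members called for Bo/Li, CTL2 passed in 9 of 12 alternatives (limma adjusted p 0.00762 to 0.0911). LOC105140172 passed in 2 (0.0204 to 0.262) and the histone H4 XM_011015369.1 in 3 (0.0333 to 0.305), and none of the 3 changed sign. The fits without a filter, without the trend and with all 12 libraries were not among these 12 alternatives. With all 12 libraries the lowest limma adjusted p of any of the 200 for Bo/Li was 0.182.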
